A study of Mus musculus with 18 samples.

Results

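The genes described here are 10 genes for sensing oxysterols, lysophospholipids and fatty acids, out of 49585 genes in the count table. They were chosen by name and comprise the oxysterol receptor gene Gpr183, the enzyme genes Ch25h, Cyp7b1 and Hsd3b7 that make or break down its ligand, the lysophosphatidylserine receptor genes P2ry10, Gpr174 and Gpr34, the lysophosphatidic acid receptor gene Lpar6, and the receptor genes Gpr132 and Ffar1. Earlier results of these data were known when they were chosen. All 10 were present in the table, each under a single Ensembl identifier. The study used Kaede mice, whose cells carry a protein that ultraviolet light turns from green to red, to separate leukocytes that stayed in an inflamed tissue from those that had left it for the draining lymph node. Recipients were given Th1-polarised OT-II CD45.1 CD4+ T cells, which recognise ovalbumin, and were immunised with ovalbumin (OVA) in complete Freund's adjuvant (CFA). They were then challenged in the footpad (joint) or the ear pinna (skin) with 100 µg heat-aggregated ovalbumin (HAO). The challenged tissue was photoconverted, and viable CD45+ Kaede red+ cells were sorted the day after and sequenced in bulk.

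There were 6 groups of 3 libraries. Joint nonmigrated and skin nonmigrated cells were red cells still in the inflamed joint or ear. Joint migrated and skin migrated cells were red cells in the lymph node draining that site. The remaining groups, joint node steady state and skin node steady state, are labelled as cells that had migrated to the node without inflammation. The sample titles of the joint steady-state group carry the letters PBS and KG and those of the skin group the word Naive. The protocol shared by all samples also describes a challenge with PBS in place of HAO, but whether both steady-state groups had received the transferred T cells and the immunisation is not given sample by sample. The labels do not say what KG stands for. If it marks cells that were still Kaede green, the joint steady-state libraries hold node cells that had not come from the joint, against their label and the stated red+ sort, and each value against that group would then compare migrants with node cells. The word Naive likewise does not say whether the skin steady-state cells were red. Their B cell and migratory dendritic cell marker sums lay nearer to those of the joint steady-state group than to those of skin migrated cells. The same doubt therefore holds for each value against the skin steady-state group, and it was not tested. Mice were 6 to 10 weeks old. The paper describes the libraries of the inflamed groups as pools of matched male and female mice, so their spread is the spread between pools. It does not describe the pooling or sex of the mice behind the steady-state libraries. A red cell in the node was taken to have been in the photoconverted tissue, but the sort did not separate cell types. The paper also reports slightly more red cells in the joint-draining node shortly after photoconversion than without it. Some red node cells may therefore have been converted in the node itself.

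Gpr183 protein guides B cells, activated T cells and dendritic cells towards the follicle edge and the outer parts of lymphoid organs by following a dihydroxylated cholesterol. Ch25h makes the precursor of this ligand, Cyp7b1 completes it and Hsd3b7 inactivates it, so the shape of the gradient depends on where these enzymes are made. Lysophosphatidylserine and lysophosphatidic acid are membrane lipids with a single acyl chain that act through their own G protein-coupled receptors, several of which are found mainly on lymphocytes or myeloid cells and can restrain or steer them.

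Libraries held 19239531 to 43814403 counts assigned to genes, and the 6 libraries of inflamed skin origin (19239531 to 22528895) were all shallower than the others (28577566 to 43814403). Reads outside any gene were 0.0925 to 0.135% in these 6 and 0.227 to 0.562% in the others, and their count columns are named in another style. The paper describes the inflamed skin cells as a second data set. Differences between joint and skin among inflamed cells therefore cannot be told apart from differences between library sets. The same holds between skin migrated and skin steady-state cells. Levels are given as CPM (read counts scaled to a common library size), with library sizes scaled by the trimmed mean of M values (TMM). A count of 3, taken as the floor, equals 0.0616 to 0.18 CPM depending on the library and covers counting error only. Ptprc, which encodes CD45, lay between 1156 and 2531 CPM in every library. The sum of 8 T cell marker genes was 189 to 372 CPM in joint nonmigrated, 355 to 994 in skin nonmigrated and 1671 to 2751.5 in the 12 node libraries. The sum of 6 B cell markers was 122 to 292 CPM (joint nonmigrated), 10.8 to 25.1 (skin nonmigrated), 846 to 1125 (joint migrated), 156 to 261 (skin migrated), 4675 to 4959 (joint steady state) and 3034 to 4161 (skin steady state). For 5 markers of mature migratory dendritic cells it was 116 to 169 CPM in joint nonmigrated, 432 to 1842 in skin nonmigrated, 2820.1 to 8047 in migrated and 465 to 775 in steady-state libraries. For 9 monocyte and macrophage markers the sum was 8522.5 to 11727 CPM in joint nonmigrated, 3868 to 9112 in skin nonmigrated and 142 to 568 in all node libraries. For 6 neutrophil markers it was 4964 to 15250.0 CPM in joint nonmigrated, 1419 to 2498 in skin nonmigrated and 12.4 to 86.1 in migrated libraries. The steady-state groups differed, with 398 to 790.5 CPM at the joint and 10.7 to 17.5 CPM at the skin. Ly6g was at the floor in skin migrated and skin steady-state cells. No marker of the other 4 lists was at the floor in all libraries of a group. Skin nonmigrated replicate 3 had the lowest T cell sum of its group (355 CPM, against 876 and 994) and the highest macrophage sum (9112 CPM, against 3868 and 5449).

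A change with migration below means migrated against nonmigrated cells, which were separate populations taken at the same time. Migrated cells held more RNA of Gpr183, Gpr174 and Ffar1 and less of Ch25h and Gpr34 than nonmigrated cells, at both the joint and the skin. Cyp7b1 and P2ry10 rose with migration at the joint, and at the skin neither passed the test. A gene was called where edgeR's quasi-likelihood test gave an adjusted p under 0.001 and the log2 fold change was beyond 1 in either direction. By this rule 7 of the 10 genes were called for migration at the joint (5 higher and 2 lower), beside 21.4% of all 16777 genes tested (8.8% higher and 12.6% lower). Between skin migrated and skin nonmigrated cells 5 were called (3 higher and 2 lower), beside 20.9% of all genes (8.49% higher and 12.4% lower). At an adjusted p under 0.05 with the same limit on the fold change, the counts were 9 and 6 genes, beside 34.3% and 35.4%. In these bulk samples, fewer cells of a type and less RNA per cell cannot be told apart.

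**Figure D1:**
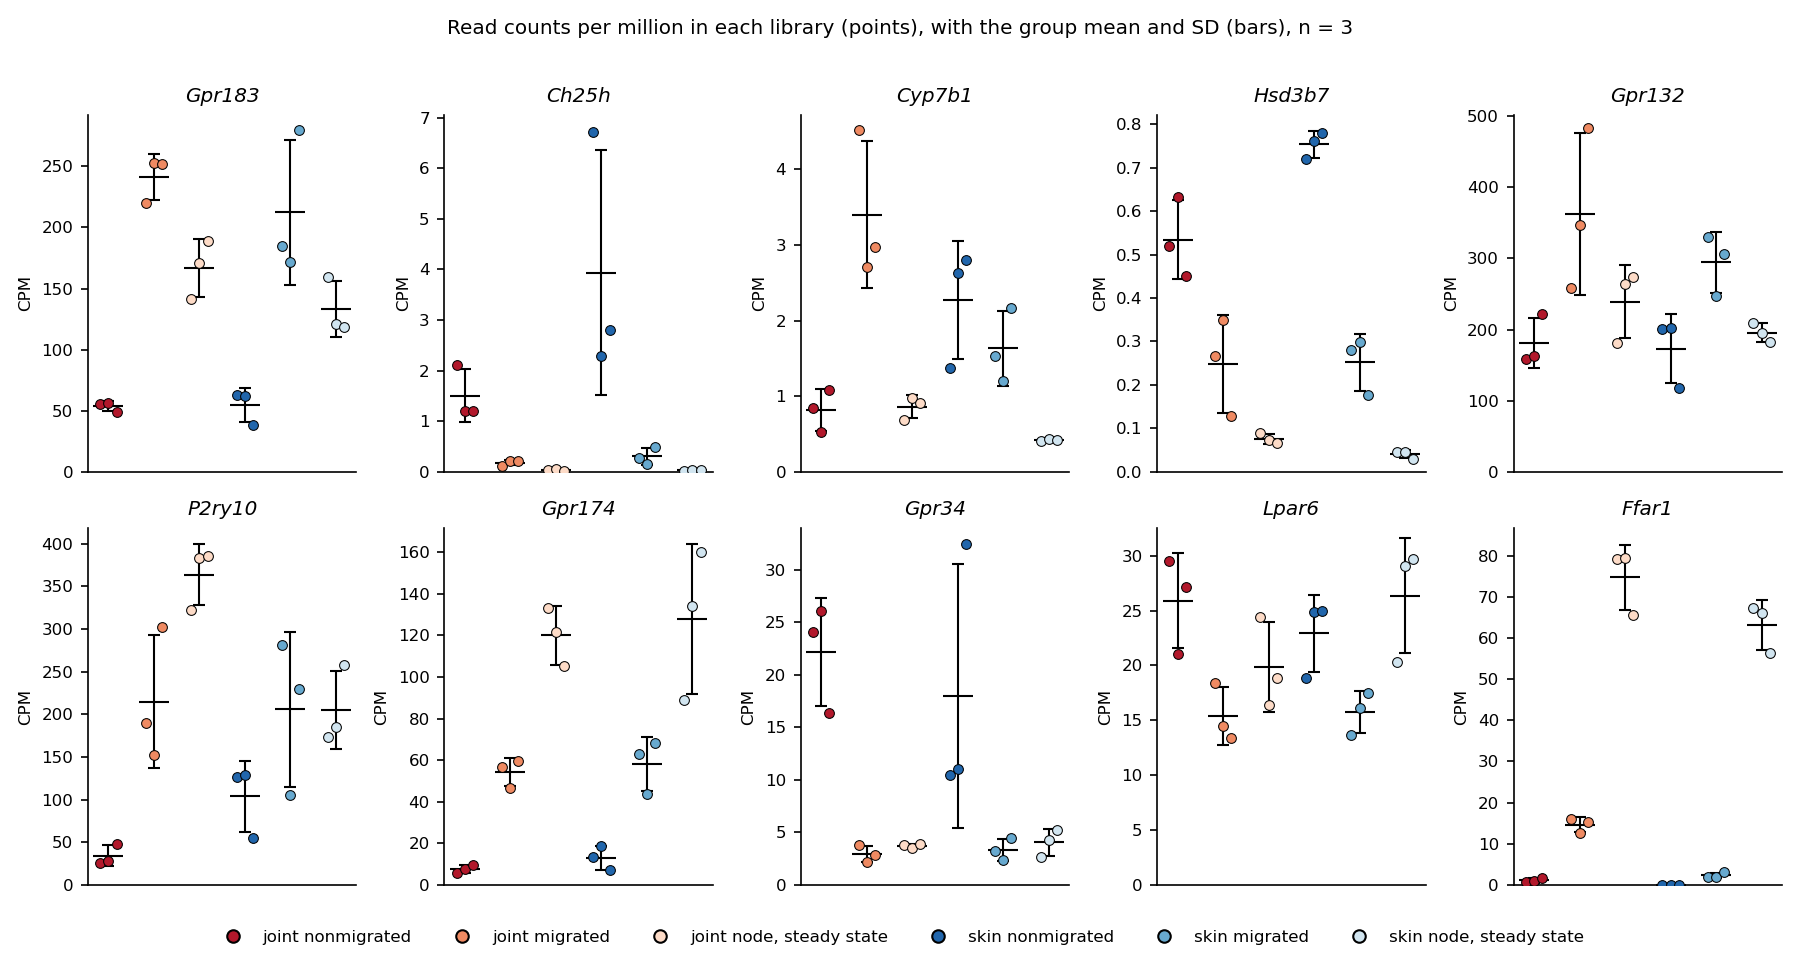
CPM (vertical axes, linear, each from 0) of the 10 genes in the 18 libraries, with a column of 3 points for each group, the group mean as a horizontal bar and the SD as whiskers. Gpr183 sat between 38.7 and 63.2 CPM in the 6 nonmigrated libraries and between 119 and 280.1 CPM in the 12 node libraries, whereas Ch25h and Gpr34 were highest in the nonmigrated groups.

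Gpr183, the oxysterol receptor gene, measured 56.0, 56.4 and 48.9 CPM in joint nonmigrated replicates 1 to 3, against 219.8, 253 and 252 CPM in joint migrated cells. At the skin the 3 nonmigrated libraries had 63.2, 62.3 and 38.7 CPM and the migrated libraries 185, 171 and 280.1 CPM. Steady-state nodes had 142, 171 and 189 CPM (joint) and 159.8, 121 and 119 CPM (skin). Thus all 12 node libraries lay above all 6 nonmigrated libraries, and the migrated and steady-state groups of each site did not overlap either. Gpr183 rose with migration at the joint (log2 fold change 2.17, SE 0.22, edgeR adjusted p 8.8e-06) and at the skin (1.95, SE 0.22, adjusted p 1.9e-05), and the difference between the 2 changes was 0.22 (SE 0.30, adjusted p 0.67). Leaving out any 1 of the 12 inflamed libraries kept both calls, with log2 fold changes of 2.10 to 2.25 at the joint. The T cell, B cell and migratory dendritic cell marker sums given above were also higher in migrated than in nonmigrated cells, and their part in the Gpr183 change was not tested.

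Gpr183 lies on the minus strand at chr14:121952551-121965195 (mm10, GENCODE M21), within an intron of Ubac2 on the opposite strand and with no exon base shared. RefSeq promoter sequences (GRCm38.p6, 250 bases before to 50 after the start site) were found for 8 of the 10 genes and not for Cyp7b1 and Gpr34. They were searched on both strands for RUNX (TGTGGT), ETS (AGGAAG), octamer (ATGCAAAT), ISRE, NF-kB and CRE (TGACGTCA) letters, which occurred in 16.8%, 35.4%, 1.74%, 3.44%, 0.411% and 1.79% of 32851 promoters. No match in the printed promoters overlaps another. The promoters of Gpr183 (chr14:121965144-121965443, minus strand) and Ch25h (chr19:34475099-34475398, minus strand) are shown because receptor and enzyme changed in opposite directions with migration. Capitals mark the matches.
Gpr183: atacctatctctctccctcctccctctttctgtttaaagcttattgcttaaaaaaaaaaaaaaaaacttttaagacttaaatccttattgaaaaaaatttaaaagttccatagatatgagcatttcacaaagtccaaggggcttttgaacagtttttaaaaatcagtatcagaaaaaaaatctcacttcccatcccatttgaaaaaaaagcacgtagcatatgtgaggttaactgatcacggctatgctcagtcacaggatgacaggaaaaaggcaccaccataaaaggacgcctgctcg
Ch25h: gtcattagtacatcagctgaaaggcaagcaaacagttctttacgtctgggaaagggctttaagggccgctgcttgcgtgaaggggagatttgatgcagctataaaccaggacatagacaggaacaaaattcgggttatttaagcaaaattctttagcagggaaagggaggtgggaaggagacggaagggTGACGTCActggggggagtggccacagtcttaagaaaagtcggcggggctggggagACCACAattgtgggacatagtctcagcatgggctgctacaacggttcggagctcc
The Gpr183 promoter held none of the 6 motifs and had a GC content of 35.3%, against a median of 52.7% over all promoters. Ch25h held a CRE match starting at position -61 and a RUNX match at position -5 from the start site, with a GC content of 51.0%.

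Ch25h, the enzyme gene for the first step of ligand synthesis, ran opposite to the receptor. Its level was 2.11, 1.20 and 1.20 CPM in joint nonmigrated cells and 0.123, 0.210 and 0.214 CPM in joint migrated cells. Skin nonmigrated libraries had 6.72, 2.28 and 2.81 CPM, and skin migrated libraries 0.279, 0.150 and 0.488 CPM. Each nonmigrated library thus exceeded each migrated one, and skin replicate 1 alone stood far above the rest. Ch25h fell with migration at the joint (log2 fold change -3.02, SE 0.53, edgeR adjusted p 0.00052) and at the skin (-3.65, SE 0.55, adjusted p 0.00017). In the 6 steady-state libraries it had 1 or 2 reads, which is at the floor, so that it was left out of the tests against steady state. Its mean was 2.65-fold (joint migrated) and 4.01-fold (skin migrated) above the mean floor of the corresponding steady-state libraries. These means rest on only 6 to 10 (joint) and 3 to 11 (skin) reads a library, and skin migrated replicate 2 was itself at the floor. The joint call rests on a margin close to the threshold. It was lost without any 1 of the 6 joint libraries or without skin migrated replicate 1 (adjusted p 0.001 to 0.00374), and the skin call without skin migrated replicate 1 (-3.58, adjusted p 0.00135) or 2 (-3.34, adjusted p 0.00117). The skin call was also lost with only the groups compared in the fit (-3.66, adjusted p 0.00243), and without skin nonmigrated replicate 1 it was kept at -3.03. With the replicate number as a block the joint call was lost too (-2.98, adjusted p 0.00195). Macrophage and neutrophil marker sums moved with Ch25h between migrated and nonmigrated cells. So did the sum of 6 stromal and endothelial markers, at 190.0 to 410 CPM in joint nonmigrated and 81.9 to 105 CPM in joint migrated, and 349 to 735 CPM in skin nonmigrated and 50.4 to 61.5 CPM in skin migrated libraries, although it was 211 to 259 CPM in steady-state libraries (Pdgfra at the floor in skin migrated and both steady-state groups). The sum of 3 keratinocyte markers was 23.3 to 272 CPM in skin nonmigrated and 0.299 to 2.24 CPM in all other libraries, where Krt14 was at the floor. The part of these cells in the Ch25h values was not tested. Ch25h is a single-exon gene at chr19:34473778-34475164 (minus strand), and 159 of its bases (11.5%) lie under Gm26902 on the opposite strand, whose reads cannot be told apart from those of Ch25h without strand information.

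Cyp7b1, which encodes the hydroxylase that completes the ligand, was the gene of the set whose change with migration differed most clearly between the sites. Joint nonmigrated libraries had 0.848, 0.532 and 1.08 CPM and joint migrated libraries 4.52, 2.71 and 2.98 CPM, with no overlap. Skin nonmigrated libraries had 1.38, 2.63 and 2.81 CPM and skin migrated libraries 1.54, 1.20 and 2.17 CPM, and these ranges overlapped. Cyp7b1 rose at the joint (log2 fold change 2.04, SE 0.38, edgeR adjusted p 0.00078) and measured -0.48 (SE 0.38, adjusted p 0.30) at the skin. The difference between the changes was 2.52 (SE 0.54, adjusted p 0.017), past 0.05 and not past 0.001. No gene of the set was called for this difference at 0.001, beside 0.119% of all genes, and 1 of the 10, Cyp7b1, passed 0.05, beside 6.13%. Unadjusted p-values were under 0.05 for 3 genes (Cyp7b1, P2ry10 and Ffar1), and the DESeq2 Wald test called Cyp7b1 (2.53, adjusted p 0.0002). A comparison of the levels within each compartment gave the 2 parts of this difference. Joint nonmigrated cells had less Cyp7b1 than skin nonmigrated cells (log2 fold change -1.47, SE 0.39, adjusted p 0.017), while joint migrated against skin migrated cells measured 1.05 (SE 0.37, adjusted p 0.18). The joint call was lost in 10 of the 12 fits that left out 1 library (log2 fold change 1.80 to 2.29, adjusted p 0.00105 to 0.00476). These were the fits without any 1 of the joint or skin migrated libraries, any 1 of the joint nonmigrated libraries or skin nonmigrated replicate 2. The joint call was also lost with only the groups compared in the fit (2.04, adjusted p 0.00162) and with the replicate number as a block (2.06, adjusted p 0.00185).

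Against steady state, Cyp7b1 rose at both sites. The joint steady-state libraries had 0.690, 0.982 and 0.910 CPM and the skin steady-state libraries 0.404, 0.440 and 0.428 CPM, all below each migrated library of their site. The log2 fold changes were 2.02 (SE 0.28, edgeR adjusted p 5.5e-05) at the joint and 1.98 (SE 0.32, adjusted p 0.00011) at the skin, and their difference was 0.04 (SE 0.47, adjusted p 0.97, 95% confidence interval -0.98 to 1.06). Without skin steady-state replicate 1 the skin value was 1.89 (adjusted p 0.00103) and not called, and the skin call was also lost with the replicate number as a block. The order of group means was thus joint migrated (3.40 CPM), skin nonmigrated (2.27), skin migrated (1.64), joint steady state (0.860), joint nonmigrated (0.821) and skin steady state (0.424). Neighbours in this order overlapped, except between skin migrated and joint steady state and between joint nonmigrated and skin steady state. The whole-table counts behind these values ran from 14 to 220 reads. Cyp7b1 lies at chr3:18071950-18243338 (minus strand).

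Hsd3b7, which encodes the enzyme that inactivates the ligand, was near the detection limit with 1 to 19 reads in a library. At the joint its level was 0.451 to 0.631 CPM in the cells that stayed and 0.129 to 0.350 CPM in migrated cells. At the skin it was 0.720 to 0.780 CPM in the cells that stayed and 0.177 to 0.30 CPM in migrated cells, so nonmigrated and migrated cells did not overlap at either site. The log2 fold changes of -1.09 at the joint (SE 0.39, edgeR adjusted p 0.034) and -1.57 at the skin (SE 0.44, adjusted p 0.0089) passed 0.05 and were not called. Steady-state libraries had 0.0666 to 0.0890 CPM (joint) and 0.0306 to 0.0463 CPM (skin, at the floor). Against these the joint migrated value was 1.69 (SE 0.50, adjusted p 0.012). The skin migrated mean was 3.31-fold above the mean floor of the skin steady-state libraries (0.0762 CPM). It came from 4 to 6 reads a library, where the floor was 0.133 to 0.15 CPM. Of the Hsd3b7 exon bases (chr7:127800604-127803802, plus strand), 62.0% are shared with Gm49388 on the same strand and 62.4% with 9430064I24Rik on the other, so that reads in these stretches were left unassigned or may belong to a neighbour, and its counts are uncertain. Across the 3 enzyme genes, the makers and the breaker of the ligand therefore did not share a direction at the joint, where Ch25h fell and Cyp7b1 rose.

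P2ry10 and Gpr174, both lysophosphatidylserine receptor genes of lymphocytes, lie 1 after the other on the plus strand of the X chromosome (P2ry10 at chrX:107088492-107104974, Gpr174 at chrX:107255878-107296769), within 208278 bases. P2ry10 measured 25.9, 28.2 and 48.1 CPM in joint nonmigrated and 190.2, 152 and 302 CPM in joint migrated cells. It measured 126, 129 and 55.4 CPM in skin nonmigrated and 282, 106 and 230.2 CPM in skin migrated cells. The groups were apart at the joint and overlapped at the skin, where migrated replicate 2 lay below nonmigrated replicates 1 and 2. P2ry10 rose at the joint (log2 fold change 2.66, SE 0.44, edgeR adjusted p 0.00035), whereas the skin value of 0.98 (SE 0.42, adjusted p 0.064) did not pass. The difference between the sites was 1.68 (SE 0.59, adjusted p 0.10) and did not pass either. The joint call was lost without joint nonmigrated replicate 1 (2.49, adjusted p 0.00283) or 2 (2.53, adjusted p 0.00293) or joint migrated replicate 3 (2.36, adjusted p 0.00136). The T cell and B cell marker sums were also higher in migrated than in nonmigrated cells at both sites (T cell 189 to 372 against 1671 to 2379 CPM at the joint), and skin nonmigrated replicate 3, with the lowest P2ry10 of its group, had the lowest T cell sum (355 CPM, against 876 and 994). Their part in the P2ry10 values was not tested. Against steady state P2ry10 measured -0.73 (SE 0.31, adjusted p 0.064) at the joint, where the groups did not overlap, and 0.03 (SE 0.31, adjusted p 0.93) at the skin. Neither was called.

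Gpr174 separated the groups more evenly. Joint nonmigrated libraries had 5.55, 7.71 and 9.80 CPM and joint migrated libraries 56.9, 46.6 and 59.6 CPM. Skin nonmigrated libraries had 13.6, 18.7 and 7.12 CPM and skin migrated libraries 62.8, 43.7 and 68.4 CPM. Gpr174 rose with migration at both sites (log2 fold change 2.82, SE 0.33, edgeR adjusted p 2.5e-05 at the joint, and 2.14, SE 0.32, adjusted p 0.00017 at the skin), and the skin call was lost without skin nonmigrated replicate 1 (2.18, adjusted p 0.00106) and with only the groups compared in the fit (2.13, adjusted p 0.00225). With the replicate number as a block the skin call was lost as well (2.21, adjusted p 0.00156). The highest levels of Gpr174 were in the steady-state nodes, with 105 to 133 CPM (joint) and 89.1 to 160.2 CPM (skin). Migrated cells of the inflamed node had less Gpr174 than these, with log2 fold changes of -1.11 (SE 0.20, adjusted p 0.00052) at the joint and -1.10 (SE 0.20, adjusted p 0.00037) at the skin. Both calls lie near the limits of the call rule. The joint call was lost without any 1 of the 6 libraries compared or skin steady-state replicate 2 (adjusted p 0.00108 to 0.00433), and the skin call without skin migrated replicate 1 or 2 or skin steady-state replicate 2 or 3 (adjusted p 0.00113 to 0.00168) or with only the groups compared in the fit (adjusted p 0.00167). With all 18 libraries in the fit neither passed (adjusted p 0.00358 and 0.0026). The T cell marker sum was 1671 to 2379 CPM in migrated and 2028 to 2751.5 CPM in steady-state libraries and the B cell sum moved in the same direction as Gpr174, and their part was not tested.

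Between these receptors on the chromosome lies P2ry10b (chrX:107148927-107173661, plus strand), a paralogue of P2ry10, and it ran the other way. P2ry10b measured 62.6, 45.9 and 34.6 CPM in joint nonmigrated against 8.50, 5.68 and 8.64 CPM in joint migrated cells, and 48.9, 30.7 and 44.9 CPM in skin nonmigrated against 6.15, 4.00 and 7.84 CPM in skin migrated cells. It fell with migration at the joint (log2 fold change -2.65, SE 0.30, edgeR adjusted p 2e-05) and at the skin (-2.79, SE 0.30, adjusted p 1.7e-05). P2ry10b reads per 100 P2ry10 reads were 71.8 to 242 in joint nonmigrated and 23.7 to 81.0 in skin nonmigrated cells, against 2.18 to 4.47 in migrated and 6.19 to 11.1 in steady-state cells. The 2 genes are similar in sequence, and reads that matched both places equally were not counted, which can understate both. Promoters of the 3 neighbouring genes are shown because they changed in different directions within 1 chromosomal stretch. They are the later of 2 RefSeq start sites of P2ry10 (chrX:107089083-107089382), the last of 3 of P2ry10b (chrX:107149365-107149664) and the start site of Gpr174 (chrX:107284096-107284395), all on the plus strand with capitals for the matches.
P2ry10: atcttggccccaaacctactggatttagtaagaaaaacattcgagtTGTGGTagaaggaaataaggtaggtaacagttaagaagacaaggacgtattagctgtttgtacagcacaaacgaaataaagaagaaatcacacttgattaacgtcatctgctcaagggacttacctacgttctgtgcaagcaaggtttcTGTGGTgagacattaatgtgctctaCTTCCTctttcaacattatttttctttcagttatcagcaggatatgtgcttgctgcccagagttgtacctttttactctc
P2ry10b: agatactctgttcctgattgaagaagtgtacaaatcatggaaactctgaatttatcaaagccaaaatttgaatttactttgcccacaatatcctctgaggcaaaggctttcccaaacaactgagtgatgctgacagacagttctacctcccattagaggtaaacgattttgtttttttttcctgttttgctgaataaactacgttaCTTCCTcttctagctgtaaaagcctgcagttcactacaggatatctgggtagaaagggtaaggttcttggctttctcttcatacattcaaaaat
Gpr174: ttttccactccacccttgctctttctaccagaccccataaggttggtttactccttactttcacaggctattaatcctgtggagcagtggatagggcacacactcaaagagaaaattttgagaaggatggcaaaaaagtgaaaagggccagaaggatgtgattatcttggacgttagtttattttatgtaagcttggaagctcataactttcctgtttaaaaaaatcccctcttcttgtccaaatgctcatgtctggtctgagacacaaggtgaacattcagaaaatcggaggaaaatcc
The P2ry10 promoter held RUNX matches at positions -204 and -55 and an ETS match at -30, its earlier start site held a RUNX match at 11 and an ETS match at -50, P2ry10b held an ETS match at -44, and Gpr174 held none of the 6 motifs.

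**Figure D2:**
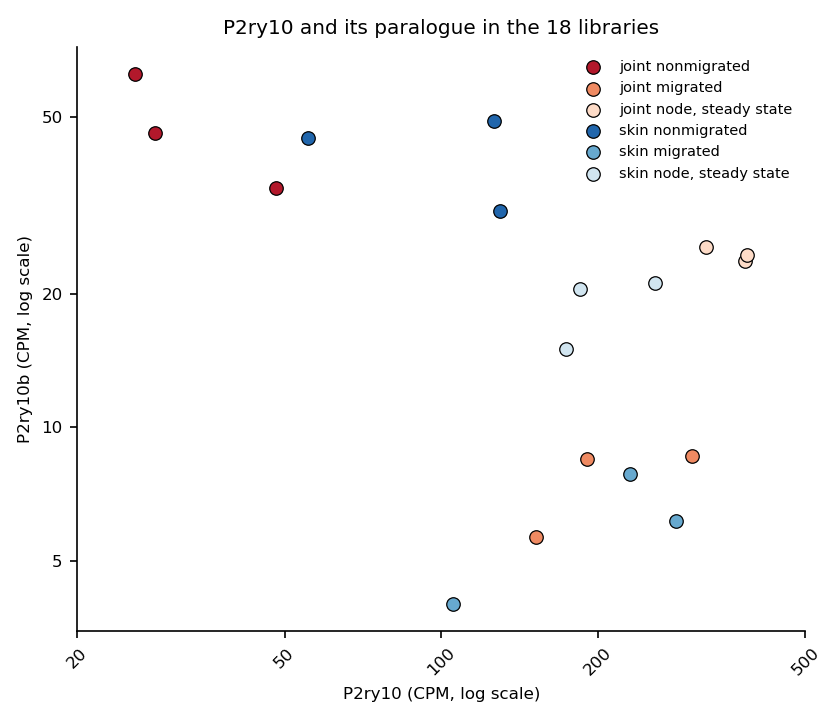
P2ry10 (horizontal axis) against P2ry10b (vertical axis) in CPM on log scales, with 1 point for each of the 18 libraries, coloured by group. The 6 migrated libraries (4.00 to 8.64 CPM of P2ry10b) lie at the lower right, and the 3 joint nonmigrated libraries (34.6 to 62.6 CPM of P2ry10b) at the upper left.

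Gpr34, a lysophosphatidylserine receptor gene of macrophages and mast cells, also had its highest levels in cells that stayed in the tissue. It measured 24.1, 26.1 and 16.4 CPM in joint nonmigrated and 3.78, 2.20 and 2.89 CPM in joint migrated cells. Skin nonmigrated libraries had 10.4, 11.05 and 32.5 CPM and skin migrated libraries 3.21, 2.40 and 4.43 CPM. No migrated library reached a nonmigrated one, and the high skin value came from nonmigrated replicate 3, the library with the highest sums of macrophage (9112 CPM, against 5449 and 3868), mast cell (307 CPM, against 52.9 and 64.3, over 6 markers) and eosinophil markers (73.7 CPM, against 12.7 and 5.50, over 4 markers) of its group. Gpr34 fell with migration at the joint (log2 fold change -2.90, SE 0.44, edgeR adjusted p 0.00018) and at the skin (-2.43, SE 0.44, adjusted p 0.00065). The joint call was lost without joint migrated replicate 2 (-2.73, adjusted p 0.00153) or 3 (-2.86, adjusted p 0.00141). The skin call was lost without any 1 of the skin migrated libraries, without joint nonmigrated replicate 1 or 2 and without joint migrated replicate 2 or 3 (adjusted p 0.00103 to 0.00435), and also with only the groups compared in the fit (-2.44, adjusted p 0.00615). Without skin nonmigrated replicate 3 the call was kept with a smaller value of -1.68. Steady-state libraries had 2.69 to 5.23 CPM and overlapped with migrated ones at both sites. The macrophage sum moved with Gpr34 at both sites. The mast cell sum was 149.5 to 344 CPM in joint nonmigrated, 30.4 to 225 CPM in joint migrated and 19.7 to 24.2 CPM in skin migrated libraries (Mrgprb2 at the floor in the last). Their part in the Gpr34 values was not tested. Gpr34 (chrX:13632089-13640858, plus strand) lies within Cask on the opposite strand, with no exon base shared.

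Lpar6, a receptor gene for lysophosphatidic acid, was the flattest of the set. Its 18 libraries spanned 13.4 to 29.7 CPM. Joint nonmigrated libraries had 29.5, 21.1 and 27.1 CPM and joint migrated libraries 18.4, 14.5 and 13.4 CPM, without overlap, and skin nonmigrated libraries had 18.9, 24.8 and 25.0 CPM against 13.7, 16.1 and 17.5 CPM in skin migrated cells. The log2 fold changes were -0.75 (SE 0.18, edgeR adjusted p 0.0040) and -0.55 (SE 0.18, adjusted p 0.023), under the size needed for a call. Skin migrated against steady-state cells measured -0.71 (SE 0.19, adjusted p 0.0047). Lpar6 (chr14:73237895-73243294, plus strand) lies within Rb1 on the opposite strand, which shares 7.6% of its exon bases.

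Gpr132, a stress-responsive receptor gene linked to lysophospholipids, oxidised fatty acids and protons, was abundant in all groups. It had 159, 163 and 222 CPM in joint nonmigrated and 258, 347 and 484 CPM in joint migrated cells. Skin nonmigrated libraries had 200.4, 202 and 118 CPM and skin migrated libraries 331, 247 and 307 CPM. The groups were apart at both sites, but the log2 fold changes of 1.00 (SE 0.26, edgeR adjusted p 0.0062) and 0.76 (SE 0.26, adjusted p 0.025) were not called. Steady-state libraries lay between, at 181 to 274 CPM (joint) and 183 to 209 CPM (skin), and every neighbouring pair in the order of the 6 group means overlapped.

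Ffar1, a receptor gene for long-chain fatty acids best known from insulin-secreting cells, had the widest range of the set. Steady-state nodes had 79.2, 79.3 and 65.6 CPM (joint) and 67.2, 66.1 and 56.3 CPM (skin). Migrated cells had 16.1, 12.5 and 15.4 CPM from the joint and 2.00, 2.05 and 3.06 CPM from the skin. Joint nonmigrated cells had 0.711, 0.897 and 1.80 CPM, and the 3 skin nonmigrated libraries held 1, 0 and 1 reads. The 2 steady-state groups overlapped, and every other neighbouring pair in the order was apart.

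Ffar1 was higher in migrated than in nonmigrated cells of the joint (log2 fold change 3.69, SE 0.37, edgeR adjusted p 8.6e-06). At the skin, where nonmigrated cells were at the floor, skin migrated cells were at least 13.9-fold higher (adjusted p 1.3e-05), and joint nonmigrated cells exceeded skin nonmigrated cells at least 6.68-fold (adjusted p 0.0005). Migrated cells had less than steady-state cells, by log2 fold changes of -2.31 (SE 0.14, adjusted p 4.4e-08) at the joint and -4.70 (SE 0.17, adjusted p 6e-10) at the skin. The difference of these changes between the sites was 2.39 (SE 0.22, adjusted p 4.4e-05). It was the only gene of the set called for this, beside 0.889% of all genes, and no other passed 0.05, beside 6.11%. Joint migrated against skin migrated cells measured 2.63 (SE 0.35, adjusted p 0.0059). The difference between joint and skin in the nonmigrated cells was not called without skin nonmigrated replicate 1 or 2, joint nonmigrated replicate 2 or 3, or joint migrated replicate 2 or 3 (adjusted p 0.00101 to 0.00294), nor with only the groups compared in the fit (adjusted p 0.0102). The other Ffar1 calls held in every fit that left out 1 library.

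The B cell marker sum moved with Ffar1 across all 6 groups. To compare them on counts, Ffar1 reads were set against those of Cd22, a B cell inhibitory receptor gene and 1 of the 6 B cell markers. This gene was chosen after its values were seen. Ffar1 reads per 100 Cd22 reads were 4.05 to 5.69 (joint nonmigrated), 5.82 to 6.54 (joint migrated), 7.01 to 8.32 (joint steady state), 3.86 to 4.32 (skin migrated) and 7.36 to 9.06 (skin steady state). The skin nonmigrated libraries gave 0 to 0.962, below every other group, from at most 1 Ffar1 read and 96 to 263 Cd22 reads each. Cd22 was an uneven part of the B cell sum. It was 16.8 to 31.7 CPM beside a sum of 122 to 292 CPM in joint nonmigrated cells. In skin nonmigrated cells it was 5.61 to 13.7 CPM beside 10.8 to 25.1 CPM. Steady-state libraries thus had the higher ratios to Cd22 at both sites, and ratios to the whole B cell sum were not computed. Apart from skin nonmigrated cells, the ratios of 3.86 to 9.06 spanned a range far narrower than that of either gene. Both genes lie on the minus strand of the same chromosome, Ffar1 at chr7:30857390-30861564 and Cd22 upstream of it at chr7:30865402-30880342, with a gap of 3837 bases. The annotated Ffar1 exon is 4175 bases long, whereas its RefSeq record spans 903 bases. Gene counts do not show where in the exon the reads fell, so whether any of them ran on from Cd22 was not tested.

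**Figure D3:**
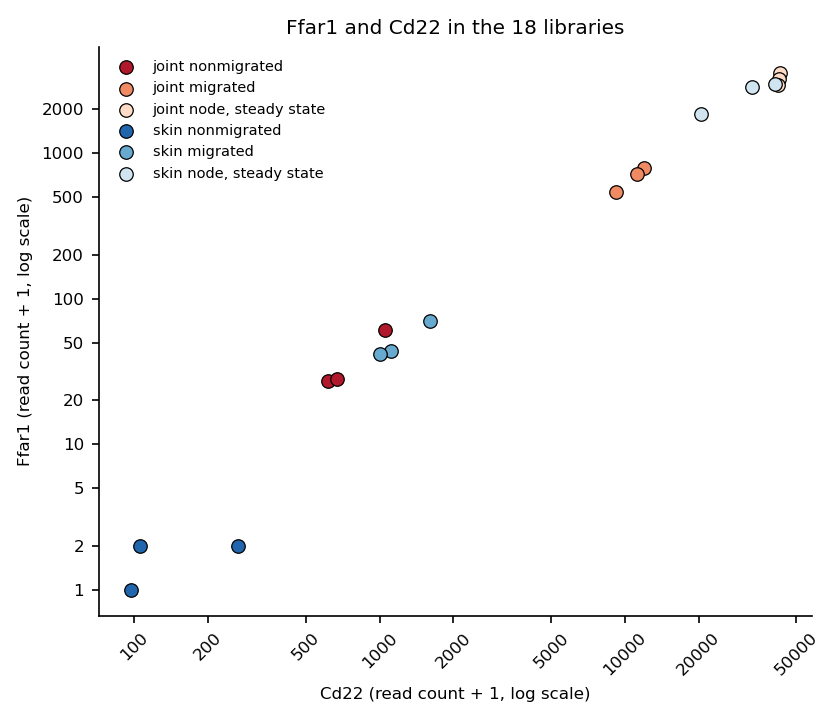
Read counts plus 1 of Cd22 (horizontal axis) and Ffar1 (vertical axis) on log scales, with 1 point for each of the 18 libraries, coloured by group. Libraries from skin nonmigrated cells (0 or 1 Ffar1 reads) are at the lower left, and steady-state libraries are at the upper right.

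The sites were also compared directly, although for inflamed cells site and library set cannot be told apart. Between joint nonmigrated and skin nonmigrated cells 1 of the 10 genes was called (Ffar1), beside 3.05% of all genes. At an adjusted p under 0.05 there were 4, beside 14.3%. The other 3 were lower at the joint, namely Ch25h (log2 fold change -1.38, SE 0.46, edgeR adjusted p 0.045), Cyp7b1 (value above) and P2ry10 (-1.61, SE 0.43, adjusted p 0.017). Between joint migrated and skin migrated cells none was called by edgeR, beside 0% of all genes, and only Ffar1 passed 0.05, beside 1.14%. Unadjusted p-values were under 0.05 for Ffar1 and Cyp7b1, and the DESeq2 Wald test called Ffar1 (2.63, adjusted p 1.9e-11). For Gpr183 the difference between migrated cells of the sites was 0.19 with a 95% confidence interval of -0.27 to 0.64, and for Gpr174 it was -0.10 (-0.76 to 0.56). In the steady-state nodes none of the 9 genes tested was called between joint and skin by edgeR or DESeq2, beside 1.44% of all 17107 genes and 3.89% at 0.05, and 3 of them (Cyp7b1, P2ry10 and Lpar6) had an unadjusted p under 0.05.

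Against the steady-state nodes, 9 of the 10 genes could be tested. In joint migrated cells 3 were called, Cyp7b1 higher and Gpr174 and Ffar1 lower, beside 15.9% of all genes (12.4% higher and 3.5% lower). In skin migrated cells the same 3 genes were called in the same directions, beside 25.1% (16.6% higher and 8.51% lower). At 0.05 Hsd3b7 was added at each site, giving 4 genes beside 24.2% and 36.5%. Gpr183, above steady state in every migrated library, measured 0.56 (SE 0.18, edgeR adjusted p 0.018) at the joint and 0.70 (SE 0.18, adjusted p 0.0036) at the skin. These comparisons and those with nonmigrated cells use the same migrated libraries.

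**Figure D4:**
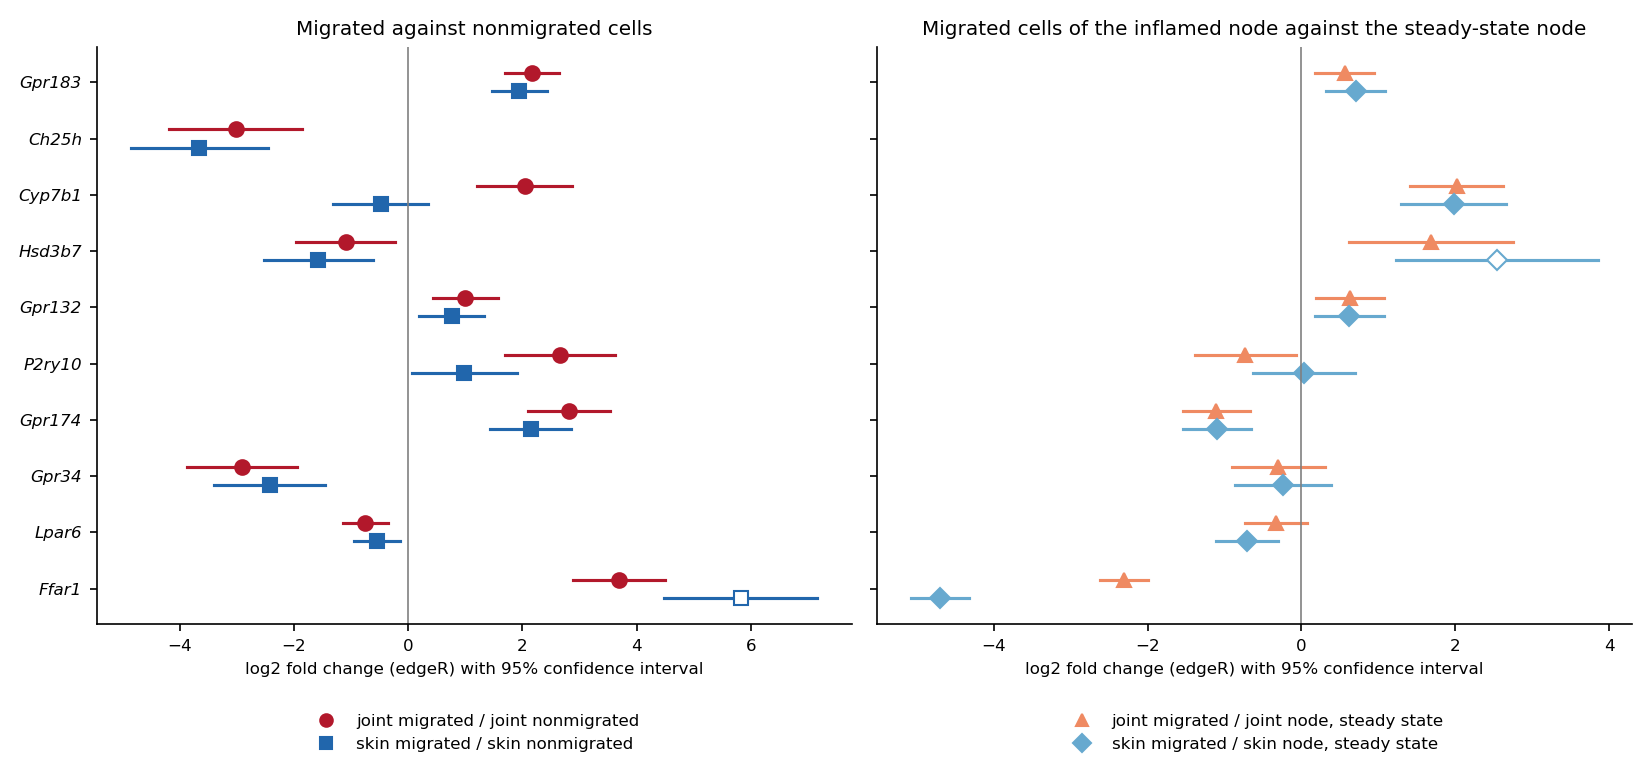
Log2 fold changes (horizontal axes) of the 10 genes with 95% confidence intervals, for migrated against nonmigrated cells (left) and migrated against steady-state node cells (right), n = 3 libraries a group. Open symbols are fits against a group at the floor and give no bound, and Ch25h was not tested on the right. Joint and skin values lie on different sides of 0 only for Cyp7b1 on the left (2.04 and -0.48) and P2ry10 on the right (-0.73 and 0.03).

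Per kilobase of exon, which allows genes to be compared within a group, Gpr132 was the most abundant gene in joint migrated cells (134 CPM per kilobase), followed by Gpr183 (83.7) and P2ry10 (72.0). In the joint steady-state nodes P2ry10 led with 122 CPM per kilobase, ahead of Gpr132 (88.2) and Gpr183 (57.9). Gpr174 and Ffar1 were at 22.2 and 17.9 CPM per kilobase there. The Ffar1 value uses the annotated exon of 4175 bases, whereas the RefSeq record spans 903 bases, so its place in this order depends on the length used. In joint nonmigrated cells the order was Gpr132 (66.8), Gpr183 (18.6), P2ry10 (11.4) and Gpr34 (10.6). The enzyme genes were all low on this scale, with the highest group means at 2.84 CPM per kilobase for Ch25h (skin nonmigrated), 1.57 for Cyp7b1 (joint migrated) and 0.272 for Hsd3b7 (skin nonmigrated).

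The other genes of these pathways were counted from fixed lists, beside 8.8% of all genes higher and 12.6% lower with migration at the joint and 8.49% and 12.4% at the skin. The lists are short and were chosen with earlier results of these data known, and counts near these shares are not a result about a list. Among 10 other oxysterol enzymes, 6 were tested, and 0 rose and 1 fell with migration at the joint and 0 rose and 2 fell at the skin. These were Soat1, which esterifies cholesterol (log2 fold change -2.0 and -2.71), and, at the skin, Cyp11a1 of steroid synthesis (-6.08). Among 15 genes of sterol sensing and transport, 0 rose and 3 fell at the joint and 0 rose and 2 fell at the skin, with Abca1, the cholesterol exporter, at -3.66 and -4.69 and Npc1, the lysosomal cholesterol transporter, at -1.97 and -2.54. The median log2 fold change of this list was -0.41 at the joint and -0.68 at the skin, beside 0.02 and 0.01 over all genes tested.

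Of 10 other lysophospholipid receptors, 8 were tested, with 1 higher and 4 lower at the joint and 0 higher and 4 lower at the skin. Ptafr, the receptor for platelet-activating factor, fell at both (-3.65 and -3.82), as did Lpar1, a lysophosphatidic acid receptor gene (-4.69 and -5.79), whereas Gpr55 rose at the joint (2.05). Mean Lpar1 in skin migrated cells was 0.0769 CPM, below the floor there (0.133 to 0.15 CPM), so the size of its fall at the skin is uncertain. The median of this receptor list was -1.16 at the joint and -0.99 at the skin. Of 22 enzymes of lysophospholipid metabolism, 21 were tested, with 0 higher and 7 lower at the joint and 1 higher and 7 lower at the skin, and a median of -0.99 and -1.0. Pla2g7, which degrades platelet-activating factor, measured -5.57 at both sites, and Lpcat2, which makes it, -4.62 and -4.51. Of 8 other fatty acid and proton-sensing receptors, 7 were tested, with 2 higher and 2 lower at the joint and 0 higher and 3 lower at the skin (median -0.70 and -0.06). Gpr84 (-5.87 and -4.62) and Hcar2 (-5.55 and -8.71) fell at both sites, and Gpr4, a proton sensor, rose at the joint (4.24). Of 19 G protein signalling genes, 18 were tested, with 0 higher and 3 lower at each site (median -0.51 and -0.43). By the same counts the 10 genes described here had a median of 1.52 at the joint and 0.14 at the skin. With Ffar1 at its lower bound the skin median was unchanged at 0.14.

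Against the steady-state nodes, 12.4% of all genes were higher and 3.5% lower at the joint, and 16.6% and 8.51% at the skin. Of the 7 other lysophospholipid receptors tested, 2 were higher and 1 lower at the joint and 4 higher and 1 lower at the skin, with Lpar3 at log2 fold changes of 6.15 and 6.60. Of 21 lysophospholipid enzymes tested, 3 were higher and 1 lower at the joint and 6 higher and 1 lower at the skin. Of the 8 fatty acid and proton-sensing receptors, 3 were higher and 1 lower at the joint and 6 higher and 0 lower at the skin, with Gpr4 at 5.82 and 6.92. In each of these 3 lists 2 genes were called higher and 0 lower in joint than in skin steady-state nodes, beside 1.44% of all genes. Among them were Ptafr (log2 fold change 2.74), Pla2g7 (3.86) and Hcar2 (5.25), so the counts of the 2 sites rest on unlike reference groups. Among G protein signalling genes, Rgs1, which dampens G protein signals, rose at both (2.60 and 2.55), as did Cyp27a1 of the oxysterol enzymes (1.03 and 1.53) and the oxysterol-responsive nuclear receptor gene Nr1h3 of the sterol-sensing list (1.91 and 2.81). Median log2 fold changes of the 9 genes described here were -0.30 at the joint and 0.03 at the skin, beside -0.02 and 0.00 over all genes.

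For each of the 10 genes, the protein-coding genes with the most similar pattern were found by Pearson's r of log2(CPM + 1) over the 18 libraries, among 14371 genes. These libraries form 6 separate groups, so r mostly describes group means. Gpr183 was most like Mknk2 (0.961), Ch25h like Edn1 (0.972), Cyp7b1 like Abi3bp (0.944) and Hsd3b7 like Sirt2 (0.982). P2ry10 was most like Zc3hav1 (0.971), Gpr174 like Sesn3 (0.988), Gimap8 (0.987) and Etnk1 (0.985), and Gpr34 like Hal (0.975). Gpr132 was most like Ctla4 (0.915) and Lpar6 like Atxn3 (0.836), the lowest of these values. Ffar1 had the closest matches of all, with Fcrl1 (0.995), Cacna1i (0.994) and Srpk3 (0.994).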

How the data were processed

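RNA was sequenced from 18 samples of sorted cells, 3 in each of 6 groups taken from the labels. The deposited values were raw counts per gene. The authors trimmed paired reads (FastQC, Trim Galore), aligned them to mm10 with TopHat2 and an Ensembl transcriptome, and counted them with HTSeq at its default settings. Tool versions and library strandedness are not given in the sources used here. Reads in the HTSeq summary lines, 11.27 to 15.1% of a library, were left out.

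Counts were tested in edgeR 4.0.16 (limma 3.58.1, R 4.3.3) with filterByExpr at a minimum count of 10, TMM scaling, the quasi-likelihood test and Benjamini-Hochberg adjustment over all genes tested, within the 12 inflamed libraries or the 12 node libraries. Standard errors were derived from the fold change and the root of its F statistic, and 95% confidence intervals used the t quantile at edgeR's total degrees of freedom. CPM were computed from TMM-scaled library sizes. DESeq2 1.42.0 was an alternative. Tables and plots used Python 3.11.15, pandas 2.3.3 and matplotlib 3.10.9, and the fits were tested on simulated data.

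All 10 genes were named and, from each pathway list, at most 3 called genes per comparison. The members and lists were chosen with earlier results of these data known. Same-numbered libraries of different groups did not deviate together in every pair, so the main tests did not pair them by number. Between migrated and nonmigrated cells of a site, however, correlations of same-numbered deviations were all positive (0.021 to 0.254 at the joint, 0.0735 to 0.173 at the skin). The sources used here do not say whether such pools came from the same mice, so a pairing within a site remains possible. P-values measure the spread between libraries, which the paper describes as pools of mice for the inflamed groups only.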

Additional observations from a re-analysis of the deposited data

Results flagged for a closer look

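The change of Cyp7b1 with migration differed between the sites. The change was higher by 2.52 on the log2 scale at the joint than at the skin (SE 0.54, edgeR adjusted p 0.017, interaction over 3 libraries a group), with every joint migrated library above every joint nonmigrated one and overlapping skin groups. The joint call itself was lost in 10 of the 12 fits that left out 1 library.

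The change of Ffar1 between migrated and steady-state node cells also differed between the sites, with a log2 difference of 2.39 (SE 0.22, edgeR adjusted p 4.4e-05). Ffar1 was lower in migrated than in steady-state cells in all libraries of both sites, by more at the skin. Neither this difference between the sites nor that of Cyp7b1 can be told apart from a difference between library sets, since the inflamed skin libraries stand apart in depth and naming.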

How the results depend on the processing

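Of 1692 comparisons of single genes with an alternative, 1556 kept their direction and their side of the threshold, 62 lost a call, 15 gained one and 59 changed sign. Numbers of genes called moved by more than 1.5 times as follows. Between skin migrated and nonmigrated cells 2 were called with only the groups compared in the fit (Ch25h, Gpr174 and Gpr34 lost). Between joint and skin nonmigrated cells 4 were called at an adjusted p under 0.05 and 0 with only the groups compared. Between migrated cells of the sites 1 was called at 0.05, with no filter on low counts, with all 18 libraries in the fit or by DESeq2. For the difference in migration between sites 1 was called at 0.05 or by DESeq2. Leaving out 1 library gave 3 to 7 genes for migration at the joint, 3 to 5 at the skin and 0 to 1 between nonmigrated cells. With the replicate number as a block the counts were 5 for joint migration (without Ch25h and Cyp7b1), 4 for skin migration (without Gpr174), 2 for skin migrated against steady state (without Cyp7b1), and as before for the rest. Correlations of same-numbered deviations ran from -0.353 to 0.254 over all pairs of groups compared. The lowest was between the steady-state nodes, and those between migrated and nonmigrated cells of a site were all positive.

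Values that changed sign were all uncalled and close to 0. With no filter Gpr183 measured 0.027 between nonmigrated cells, Hsd3b7 0.053 and Lpar6 0.038 between migrated cells, and P2ry10 -0.0078 in skin migrated against steady-state cells. P2ry10 there was -0.0087 with at least 10 counts in each library of a group and -0.060 under the block. For the difference in node changes Gpr132 was -0.0052 under the block, and Gpr174 was 0.0025 with DESeq2 size factors, 0.0030 by the DESeq2 Wald test and 0.044 with at least 10 counts.

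Leaving out 1 library gave ranges of -0.22 to 0.088 (Gpr183) and -0.15 to 0.19 (Gpr132) between nonmigrated cells. Between migrated cells they were -0.33 to 0.33 (Hsd3b7), -0.23 to 0.37 (P2ry10), -0.25 to 0.070 (Gpr174), -0.38 to 0.12 (Gpr34) and -0.15 to 0.10 (Lpar6). P2ry10 ran from -0.30 to 0.30 in skin migrated against steady-state cells. Between steady-state nodes Gpr174 ran from -0.31 to 0.092 and Gpr34 from -0.36 to 0.091. For the difference in node changes the ranges were -0.24 to 0.17 (Gpr183), -0.22 to 0.36 (Cyp7b1), -0.19 to 0.20 (Gpr132), -0.16 to 0.25 (Gpr174) and -0.28 to 0.25 (Gpr34). The causes were not tested. Depth limits Hsd3b7 and the node values of Ch25h, which rest on few reads.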
